A study of Mus musculus with 6 samples.

Results

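Aquaporins are membrane channels that let water, and in some members glycerol or other small solutes, cross cell membranes along an osmotic gradient. The family is split into water-selective channels, aquaglyceroporins that also pass glycerol, and members that sit mainly in intracellular membranes. In the inner ear they are known from fibrocytes, supporting cells (SCs) and the outer sulcus, where water has to follow the ion transport that forms endolymph. The aquaporin genes described here were the 10 genes *Aqp1* to *Aqp9* and *Aqp11*, each found by its symbol among 20259 named genes on the arrays. The set was selected on measured values: it was proposed because *Aqp1* was higher with DAPT in all 3 experiments, and for *Aqp3*, which had 2 clusters of probes, the brighter cluster was taken. The comparison of DAPT with control is therefore given as a description, with no test for any of the 10 genes. The spread of levels between experiments was not what that choice used, and it was tested. The error term of that test comes from how the DAPT differences varied between experiments. For *Aqp1* the test is therefore not fully independent of the choice.

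The RNA came from the cochlear epithelium of wild-type mouse embryos at E15.5, the stage at which hair cells (HCs) and SCs begin to form. Explants that held the cochlear duct, its neurons and attached mesenchyme were cultured with EGF and FGF in the medium and with either 3.33 µM DAPT, a γ-secretase inhibitor that blocks Notch receptor cleavage, or 0.013% of the vehicle DMSO (control). Explants were pooled, the epithelium was freed with collagenase and dispase, and 1 control and 1 DAPT pool were hybridised in each of 3 experiments. The labels give 23 hours of culture for experiment 1, 19 hours for experiment 2 and 24 hours for experiment 3, while the series description and the paper give other times, and culture time, day and dissection cannot be told apart between experiments. DAPT also inhibits the cleavage of other γ-secretase substrates, which limits it as a model of Notch loss.

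All values are log2 signals of Affymetrix Mouse Exon arrays as the authors normalized them, with array medians between 6.297 and 6.364. A difference of 1 is a doubling of signal. All 7 epithelial marker genes, among them *Epcam* and *Cdh1*, lay on all 6 arrays above the 95th percentile of 907 clusters of olfactory receptor genes, which are mostly silent outside the nose and served here as a reference for clusters with little or no transcript. With DAPT all 6 listed Notch target genes were lower and all 10 HC genes higher at an unadjusted p under 0.05 in limma. Limma is a linear model fitted across genes, here with experiment as a blocking term. At that threshold 5.27% of all genes were higher and 2.59% lower. Both lists were chosen with earlier results of these data known. No gene passed an adjusted p of 0.05 for DAPT against control (0% of 20259). The number of arrays limits the precision of every value, and in such bulk RNA fewer cells of a type and less RNA per cell cannot be told apart.

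Of the 10 genes, 6 stood above the olfactory receptor reference on all 6 arrays, namely *Aqp1*, *Aqp2*, *Aqp3*, *Aqp5*, *Aqp6* and *Aqp11*. *Aqp4*, *Aqp7*, *Aqp8* and *Aqp9* were above it on 0 arrays. A stricter reference, the 99th percentile, kept only *Aqp5* on all 6 arrays. These positions say whether a signal stood above the background of the array and not how much RNA a gene had, since probes differ in brightness.

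*Aqp1* and *Aqp6* had the largest differences with DAPT among the 10 genes, and they were also the ones that differed most between experiments. The mouse promoters of both, 250 bases before to 50 bases after the start in RefSeq (build GRCm38.p6), are printed because these members carry the pattern described below. That of *Aqp1* lies at chr6:55336049-55336348 and that of *Aqp6* at chr15:99600950-99601249, both on the plus strand. The *Aqp6* window belongs to a start inside the span that RefSeq gives the gene and not to its 5′ end, and the arrays do not say which start these cells used. Capitals mark, on either strand, the core TGGGAA bound by the Notch effector RBPJ (TTCCCA on the opposite strand) and the E-box CAGCTG, a form of the motif bound by basic helix-loop-helix factors. The motifs do not overlap here.
Aqp1: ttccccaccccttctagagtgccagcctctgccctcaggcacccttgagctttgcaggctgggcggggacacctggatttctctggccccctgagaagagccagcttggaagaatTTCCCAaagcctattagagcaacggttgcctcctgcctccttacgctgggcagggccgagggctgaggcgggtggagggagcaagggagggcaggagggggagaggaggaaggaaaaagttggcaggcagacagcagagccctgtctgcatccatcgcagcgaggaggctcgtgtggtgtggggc
Aqp6: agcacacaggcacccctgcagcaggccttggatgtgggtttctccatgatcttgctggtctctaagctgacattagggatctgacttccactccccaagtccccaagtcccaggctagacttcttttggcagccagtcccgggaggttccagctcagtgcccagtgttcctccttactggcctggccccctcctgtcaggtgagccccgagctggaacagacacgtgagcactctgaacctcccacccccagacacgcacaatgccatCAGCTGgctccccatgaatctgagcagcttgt

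The *Aqp1* window held 1 RBPJ core, starting at position −135 counted from the start site, and no CAGCTG. The *Aqp6* window held 1 CAGCTG and no RBPJ core. Of 32851 promoter windows of the same length in the table, 25.6% held the RBPJ core and 16.3% held CAGCTG. *Aqp4* was left out of this search. Among the 9 other members, 4 held the core (*Aqp1*, *Aqp8*, *Aqp9* and *Aqp11*) in at least 1 window, and 2 held CAGCTG (*Aqp2* and *Aqp6*). These 9 genes had 11 windows, and *Aqp9* held the core in only 1 of its windows. Members were counted by gene and the shares above by window, so they are not directly comparable. The motifs were chosen after the values had been seen, and the matches describe the letters only.

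*Aqp1* encodes the water channel of red blood cells, many endothelia and the proximal tubule of the kidney, and in the cochlea it is known from fibrocytes around the duct. Its control signal was 8.04 in experiment 1, 9.13 in experiment 2 and 9.69 in experiment 3, and its DAPT signal was 8.87, 9.73 and 10.09 in the same order. DAPT was above control within every experiment, but the groups overlapped, since the control pool of experiment 3 was brighter than the DAPT pool of experiment 1. The differences within experiments were 0.83, 0.59 and 0.40, with a mean of 0.61 ± 0.22 (SD, n = 3), a 1.52-fold higher signal. Across all genes 67 had a mean difference at least as large, *Aqp1* included.

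*Aqp6*, known from kidney intercalated cells, where its protein sits in vesicles and passes anions more readily than water, had control signals of 8.996, 8.23 and 7.74 and DAPT signals of 9.74, 8.63 and 8.17 in experiments 1, 2 and 3. Again DAPT was above control in each experiment while the groups overlapped. The differences were 0.74, 0.40 and 0.44, with a mean of 0.53 ± 0.19 (SD, n = 3), or 1.44-fold, and 103 genes had a mean difference at least as large. The pools of experiment 1 were the brightest for *Aqp6* and the dimmest for *Aqp1*, so that these genes ran in opposite directions between experiments while each was higher with DAPT.

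**Figure D1:**
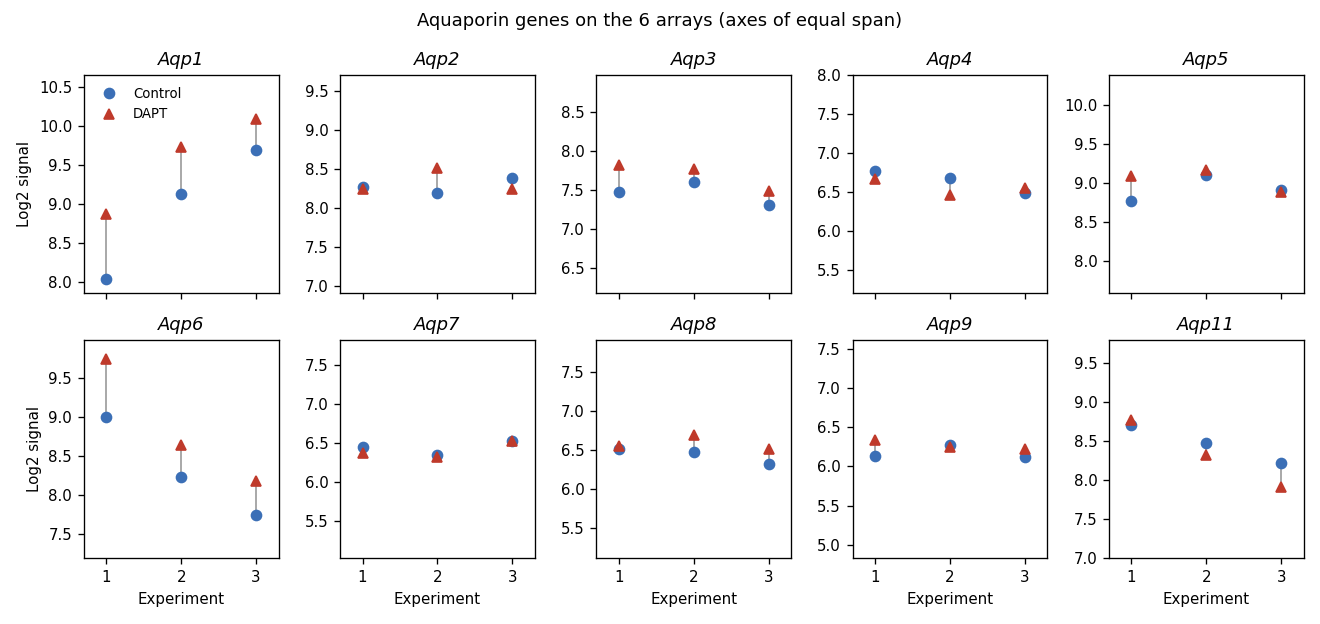
Log2 signal of the 10 aquaporin genes (vertical axes, each spanning the same range) in the control (circles) and DAPT (triangles) pool of each experiment (horizontal axis), with a grey line joining the pools of 1 experiment. *Aqp1* lies between 8.04 and 10.09 and is dimmest in experiment 1, *Aqp6* lies between 7.74 and 9.74 and is brightest there, and both are higher with DAPT in all 3 experiments.

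Among the other water-selective channels, *Aqp2*, the vasopressin-regulated channel of the kidney collecting duct, had control signals of 8.27, 8.19 and 8.38 and DAPT signals of 8.24, 8.51 and 8.24 in experiments 1, 2 and 3. DAPT was higher only in experiment 2, and the mean difference of 0.05 ± 0.24 (SD, n = 3) was smaller than its spread. *Aqp5*, the channel of salivary and tear glands that the outer sulcus of the cochlea also uses, had control signals of 8.77, 9.10 and 8.90 and DAPT signals of 9.09, 9.17 and 8.88. Its differences were 0.33, 0.07 and −0.02, so that experiment 1 alone gave most of the mean of 0.12 ± 0.18 (SD, n = 3).

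*Aqp4* encodes the channel of astrocyte end-feet and of SCs in the mature cochlea. Its signal was between 6.49 and 6.78 in control and between 6.46 and 6.67 in DAPT pools, near the array medians and under the olfactory receptor reference. The difference was −0.09 ± 0.14 (SD, n = 3), with 1 experiment higher and the others lower. This mean difference was smaller than its spread, and a DAPT effect on *Aqp4* was not tested.

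The aquaglyceroporins *Aqp3*, *Aqp7* and *Aqp9* pass glycerol as well as water. *Aqp3*, the channel of skin and other epithelia, had control signals of 7.48, 7.61 and 7.31 and DAPT signals of 7.81, 7.76 and 7.48 in experiments 1, 2 and 3. DAPT was higher in each experiment, by 0.22 ± 0.10 (SD, n = 3) on average, and the groups overlapped. A dimmer *Aqp3* cluster, with signals between 3.06 and 5.10, lay under the olfactory receptor reference on every array and was not used. *Aqp7*, which releases glycerol from fat cells, had −0.03 ± 0.04 (SD, n = 3), and *Aqp9*, which takes glycerol up into liver, had 0.10 ± 0.12 (SD, n = 3). Both lay under the olfactory receptor reference on every array. *Aqp3* and *Aqp7* are neighbours on chromosome 4 with no protein-coding gene between them in RefSeq, and only *Aqp3* was higher in all 3 experiments.

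*Aqp8*, which passes ammonia and hydrogen peroxide besides water, had control signals of 6.51, 6.47 and 6.32 and DAPT signals of 6.55, 6.69 and 6.51. It was the only member whose DAPT pools all lay above its control pools, with 6.5098 against 6.5059 at the closest. Of all genes 4.93% had this order. The mean difference of *Aqp8* was only 0.15 ± 0.10 (SD, n = 3), at a signal under the olfactory receptor reference. *Aqp11*, an intracellular member that the proximal tubule of the mouse kidney requires, had control signals of 8.70, 8.47 and 8.21 and DAPT signals of 8.76, 8.32 and 7.91. DAPT was higher in experiment 1 and lower in the others, with a mean of −0.13 ± 0.18 (SD, n = 3). Of the 10 genes, 4 were higher with DAPT in all 3 experiments, 0 were lower in all 3 and 6 were mixed. *Aqp1* is among the 4 by the choice of the set, and *Aqp8* is among them at a signal under the olfactory receptor reference. Among all genes 19.1% were higher and 10.5% lower in all 3. The median difference was 0.11 over the 10 genes and 0.02 over all genes.

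**Figure D2:**
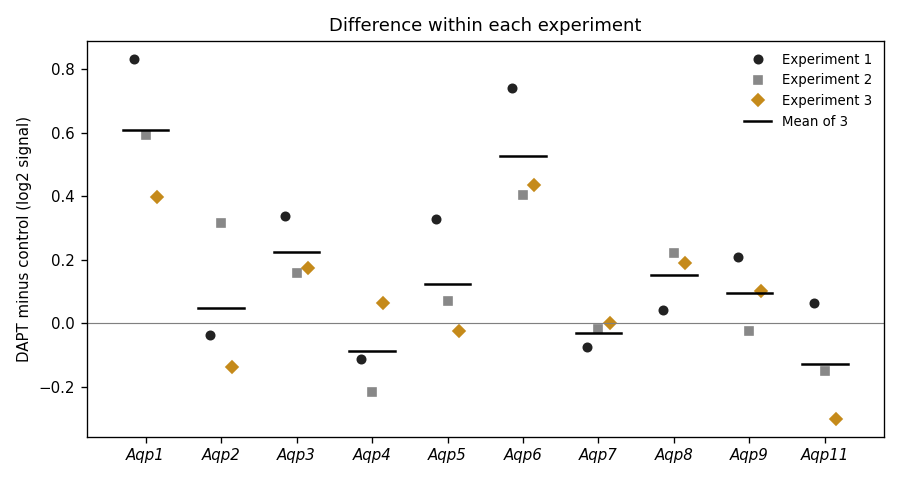
DAPT minus control in log2 signal (vertical axis) for each aquaporin gene (horizontal axis), with a symbol for each experiment and a bar at the mean of the 3. *Aqp1* at 0.61 and *Aqp6* at 0.53 have the highest means, and the points of *Aqp2*, *Aqp4*, *Aqp5*, *Aqp7*, *Aqp9* and *Aqp11* lie on both sides of 0.

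The levels of *Aqp1* and *Aqp6* differed between the experiments by more than the spread within them. The mean of the control and DAPT pool for *Aqp1* was 8.45 in experiment 1, 9.43 in experiment 2 and 9.89 in experiment 3, a range of 1.44 or 2.71-fold. For *Aqp6* it was 9.37, 8.43 and 7.96, a range of 1.41 or 2.66-fold. The moderated F test of limma over the experiments gave an adjusted p of 0.021 for *Aqp1* and 0.018 for *Aqp6* over all genes. These were 2 of 10 aquaporins called, where 5.17% of all genes were called. The shift was seen in both arms: from experiment 1 to experiment 3 *Aqp1* was higher by 1.65 in control and by 1.22 in DAPT pools, and *Aqp6* had −1.26 and −1.56.

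Compared in pairs in the same way, experiments 1 and 3 differed in *Aqp1* (adjusted p of 0.015 in limma) and *Aqp6* (adjusted p of 0.013), where 4.47% of all genes were called. Experiments 1 and 2 also differed in *Aqp1* (adjusted p of 0.033) and *Aqp6* (adjusted p of 0.038), where 2.17% were called. Between experiments 2 and 3 neither passed, with adjusted p of 0.184 and 0.168, where 0.00494% of all genes, a single gene, were called. With so few genes called in that comparison, it cannot say whether the calls rest on the pools of experiment 1. Between experiments 2 and 3 the unadjusted p in limma was 0.0055 for *Aqp1* and 0.0027 for *Aqp6*. The mean of *Aqp1* went from 9.43 to 9.89 and that of *Aqp6* from 8.43 to 7.96, the same directions as from experiment 1. When every cluster was tested on its own, without choosing 1 for each gene, the adjusted p of *Aqp1* was 0.057 and that of *Aqp6* 0.054 in limma, both above 0.05.

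*Aqp11* fell short of the threshold in the same test. Its experiment means were 8.73, 8.39 and 8.06, a range of 0.67, with an adjusted p of 0.059 in limma, and under 4 of 9 alternative settings it passed. The other 7 members had ranges of 0.08 to 0.29 between experiments, and the median range over all genes was 0.22. Of the 10 genes 7 were lower and 3 higher in experiment 3 than in experiment 1.

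**Figure D3:**
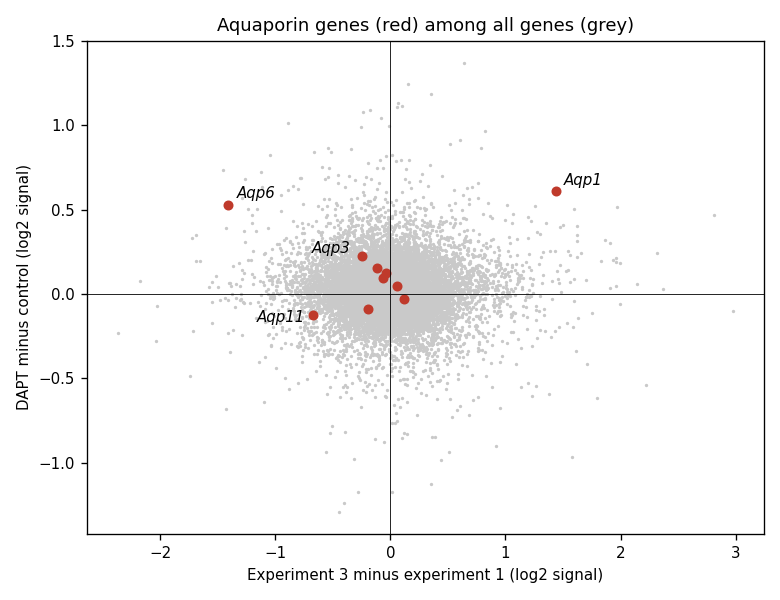
Each of 20259 genes (grey points) and the 10 aquaporins (red) by the difference between experiments 3 and 1, averaged over both pools (horizontal axis, log2 signal), and by the mean DAPT minus control difference (vertical axis, log2 signal). *Aqp1* at 1.44 and 0.61 and *Aqp6* at −1.41 and 0.53 lie at the upper right and upper left, and the other members lie between −0.67 and 0.12 on the horizontal axis.

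Markers of other cell types also differed between experiments, and their part in the values of *Aqp1* and *Aqp6* was not tested. For *Aqp1*, a gene of endothelium and mesenchyme, the mean signal of 10 endothelial genes was 7.62 in experiment 1, 8.27 in experiment 2 and 8.57 in experiment 3, the same order as *Aqp1*. All 10 were higher in experiment 3 than in experiment 1, where 50.3% of all genes were. In limma 6 were called between experiments, where 5.17% of all genes were called. *Kdr*, the receptor gene for VEGF in endothelium, had a shift of 1.66 with an adjusted p of 0.013. The mean of 12 mesenchymal genes was 8.62, 9.09 and 9.44, 11 of them were higher in experiment 3, and 8 were called. *Pou3f4*, the transcription factor gene of otic mesenchyme, was among these with a shift of 0.92 and an adjusted p of 0.021. The mean of 10 neuronal genes was 7.997, 8.82 and 8.81, with 6 called. That of 8 macrophage genes was 7.33, 7.43 and 7.87, with 7 higher in experiment 3 and 1 called, and its DAPT differences were 0.23, −0.12 and 0.34. Above the olfactory receptor reference on all 6 arrays were 8 of the 10 endothelial and 11 of the 12 mesenchymal genes, though the epithelium had been separated with enzymes. Of 8 red blood cell genes only 3 were measured, with means of 7.05, 7.24 and 7.36 and 1 called, and the globin genes were not among them.

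The same lists were set beside the DAPT differences of *Aqp1*. The mean endothelial signal lay between 7.49 and 8.57 in control and between 7.75 and 8.57 in DAPT pools, and its differences were 0.26, −0.03 and −0.0036 in experiments 1, 2 and 3, beside 0.83, 0.59 and 0.40 for *Aqp1*. What part endothelial cells had in the DAPT difference of *Aqp1* was not tested. The mesenchymal mean lay between 8.59 and 9.44 in control and between 8.65 and 9.45 in DAPT pools, with differences of 0.07, 0.03 and 0.01. Of the endothelial genes 1, *Kdr* at 0.24, was higher at an unadjusted p under 0.05 in limma, and of the mesenchymal genes 0 were. Of 8 pericyte genes 5 were lower and 1 higher with DAPT, with mean differences of −0.15, −0.39 and −0.47. Lower at that threshold were also 8 of 11 SC genes and 3 of 7 melanocyte genes, and of 6 glial genes 0 were higher or lower. At that threshold 5.27% of all genes (1067) had a higher signal and 2.59% (525) a lower one, which became 1423 and 392 after quantile normalization was repeated. The 10 HC genes had mean differences of 0.51, 0.66 and 0.79 in experiments 1, 2 and 3, and their part in the values of *Aqp1* was not tested.

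Beside *Aqp6*, which was brightest in experiment 1, stood several lists with the same order, among them lists of the cochlear roof, epithelium and greater epithelial ridge, while the mean of the 10 HC genes was 8.73, 8.62 and 8.93. The mean of 9 genes of the cochlear roof was 9.16, 8.64 and 8.61 in experiments 1, 2 and 3, with 8 genes lower in experiment 3 than in experiment 1. In limma 3 of them were called between experiments, where 5.17% of all genes were called. The mean of 7 epithelial genes was 10.54, 10.26 and 10.01 with all 7 lower, and that of 6 genes of the greater epithelial ridge was 11.21, 10.73 and 10.66 with all 6 lower. *Bsnd*, which encodes the chloride channel subunit barttin of marginal cells, had a shift of −0.80 with an adjusted p of 0.026 and was higher with DAPT by 0.62 (standard error 0.11). *Vmo1*, another roof gene, had a shift of −0.70 with an adjusted p of 0.031 in limma and had −0.22 with DAPT (standard error 0.08). The roof gene *Kcne1* had a larger shift, of −1.31 with an adjusted p of 0.016 in limma, and 0.18 with DAPT (standard error 0.10). The roof list as a whole had DAPT differences of 0.08, 0.14 and 0.10, the epithelial list 0.10, −0.14 and −0.29 and the ridge list −0.21, 0.05 and −0.28, beside 0.74, 0.40 and 0.44 for *Aqp6*. The roof list ranged from 8.56 to 9.12 in control and from 8.66 to 9.20 in DAPT pools. These shifts of *Aqp6* and of the duct genes were not tested against each other.

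**Figure D4:**
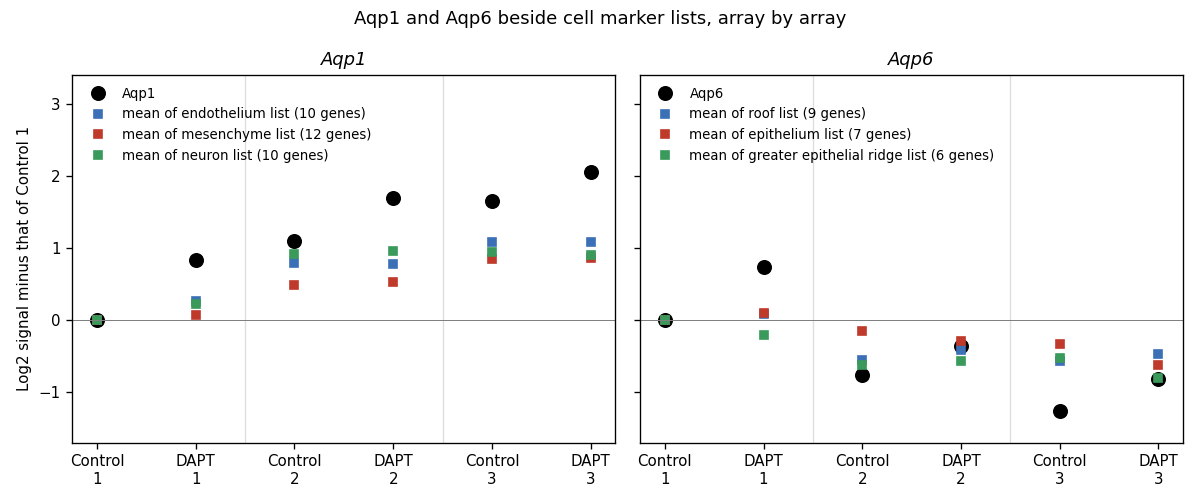
Log2 signal minus that of control pool 1 (vertical axis) on the 6 arrays (horizontal axis) for *Aqp1* and *Aqp6* (large black points) and the mean of 3 marker lists each (squares). *Aqp1* and the endothelial, mesenchymal and neuronal means are lowest in experiment 1, while *Aqp6* and the roof, epithelial and ridge means are highest there. The lists in each panel were picked after their values had been seen.

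The genes most like *Aqp1* over the 6 arrays, among 10129 genes with a mean above the median gene, the other members left out, were *Scarf2* (Pearson r = 0.993), *Ahcyl2* (r = 0.989), *Plxnd1* (r = 0.989), *AI593442* (r = 0.986) and *St8sia2* (r = 0.984). *Plxnd1* encodes a semaphorin receptor known from endothelium, and its differences were 0.34 with DAPT and 0.66 between experiments 3 and 1. *AI593442* shifted between experiments about as much as *Aqp1*, by 1.47, with 0.39 for DAPT, whereas *Ahcyl2* and *St8sia2* followed the order of *Aqp1* with far smaller steps, of 0.11 and 0.19 between experiments. The lowest coefficients were those of *Secisbp2l* (r = −0.992), *Sema4f* (r = −0.991) and *Slc15a4* (r = −0.990). With 6 arrays that share experiments and so many genes compared, coefficients this high are a description only. For *Aqp6*, added after its values were seen, *Slc41a1*, which encodes a magnesium transporter (r = 0.998), and *Dgkd* (r = 0.997) were highest, and *Aqp1* and *Aqp6* had r = −0.605.

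On chromosome 15 *Aqp2*, *Aqp5* and *Aqp6* follow each other in RefSeq with no other protein-coding gene between them. Their values stood apart without a test of this contrast between genes: the difference between experiments 3 and 1 was −1.41 for *Aqp6*, −0.04 for *Aqp5* and 0.06 for *Aqp2*. *Racgap1*, a gene of cell division on the other side of *Aqp6*, had 0.36 between experiments and −0.30 with DAPT, both opposite to *Aqp6*, and does not overlap it in RefSeq. *Faim2*, an apoptosis inhibitor gene beside *Aqp2*, had −0.46 between experiments (adjusted p of 0.052 in limma) and 0.36 with DAPT. The neighbours of *Aqp1* on chromosome 6, *Mindy4* and *Ghrhr*, had 0.05 and −0.06 between experiments.

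The further mouse aquaporins on the arrays were *Mip*, the channel of the eye lens, and *Aqp12*, known from the pancreas. The brightest cluster of *Mip* had a mean signal of 8.57 in control and 8.41 in DAPT pools, a difference of −0.16 ± 0.27 (SD, n = 3) with 1 experiment higher. Its dimmer clusters, all under the olfactory receptor reference, had differences of 0.09, 0.39 and 0.75. With the mean of all its clusters *Mip* had 0.27, so that its sign depended on the cluster. *Aqp12* had −0.02 ± 0.10 (SD, n = 3), smaller than its spread.

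Genes that work with aquaporins were counted in 5 lists, and 0 of their genes passed the adjusted threshold for DAPT in limma. Of 8 measured genes of the complex that anchors AQP4 at the membrane, 1 was higher and 1 lower at the unadjusted threshold of 0.05, which 5.27% of all genes passed as higher and 2.59% as lower, so that counts this small in lists of this size are no result about them. *Dtna*, which encodes α-dystrobrevin of that complex, had 0.21 (standard error 0.07), and *Kcnj10*, which encodes the potassium channel Kir4.1 found beside AQP4 in glia, had −0.22 (standard error 0.08). Of 16 genes of the vasopressin and cAMP pathway that controls AQP2 in the kidney, 1 was higher and 0 lower. This was the vasopressin receptor gene *Avpr1b* at 0.30 (standard error 0.08), which together with *Avpr1a* and *Avpr2* lay under the olfactory receptor reference on all 6 arrays. Of 7 genes of the response to hypertonic medium 1 was higher and 0 lower, the chaperone gene *Hspa4l* at 0.26 (standard error 0.08). *Nfat5*, the transcription factor gene of that response, had −0.09. Of 14 genes of cell volume regulation and 5 of glycerol and urea handling 0 were higher or lower. The median differences of the 5 lists were 0.01, −0.03, 0.04, −0.03 and 0.12 in this order, beside 0.02 over all genes.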

How the data were processed

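The authors processed the scans of Affymetrix Mouse Exon arrays in Partek, using its extended set of meta-probes and RMA, and deposited quantile-normalized log2 values for each transcript cluster. The processing notes name the build mm9, and coordinates printed here are those of the RefSeq promoter table. Of 115830 clusters the probe annotation gave 25539 a single gene, 2300 several and 87991 none. A gene identifier linked 24941 of the 25539 to a current symbol. The brightest cluster stood for a gene, which left 20259 genes.

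The fit used limma 3.58.1 (R 4.3.3) over all genes with terms for treatment and experiment, eBayes, and Benjamini-Hochberg adjustment at 0.05. Differences between experiments were tested by the moderated F over the experiment terms. The paper names a one-way ANOVA model without listing its terms, and a plain one-way comparison without pairing was an alternative here. The pairing comes from the labels, and pools of the same experiment deviated together (r over genes of 0.556, 0.434 and 0.513). The scripts were tested on simulated data. Python 3.11.15, pandas 2.3.3, numpy 2.4.6 and matplotlib 3.10.9 were used.

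The 10 members, all lists and the alternatives were chosen with earlier results of these data known. Text names all members, the further aquaporins, the 5 genes with the highest and 3 with the lowest correlation with *Aqp1*, and, from each partner list, at most 3 genes with the largest difference among those past an unadjusted 0.05 with the same sign in every experiment. Neighbouring genes, *Nfat5*, *Pou3f4*, *Kcne1* and other receptor genes were added after their values were seen. Lists of hair cells, supporting cells, roof, greater epithelial ridge, epithelium, endothelium, erythroid cells, pericytes, mesenchyme, glia, neurons, macrophages and melanocytes were computed.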

Additional observations from a re-analysis of the deposited data

Results flagged for a closer look

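Probe clusters that did not represent a gene were left out of the report's comparisons, and 2 of 4 such clusters of aquaporin genes had every DAPT pool above every control pool. Both belonged to *Mip*. In one of them control pools had log2 signals of 5.33 to 5.54 and DAPT pools 5.65 to 6.07, with a mean difference of 0.3904. In the other, control pools had 6.44 to 6.56 and DAPT pools 6.59 to 6.61, with a mean difference of 0.0854. Both lie under the olfactory receptor reference, while the brightest *Mip* cluster had a difference of −0.16. A further dim *Mip* cluster had 0.7541 with groups that overlapped. Among all genes 4.93% had every DAPT array above every control array, and these clusters were examined after their values were known, so no test of the DAPT difference is given.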

How the results depend on the processing

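The differences of *Aqp1* and *Aqp6* with DAPT kept their sign under all 7 alternatives run for them, between 0.49 and 0.71 and between 0.42 and 0.59. *Aqp2* changed sign under 1 of 7, and *Aqp3* had 0.44 with a second cluster, itself under the olfactory receptor reference, averaged in. Without the block by experiment (no replicate block) the mean differences were the same, at 0.61 and 0.53, and 0 genes passed after adjustment, as with the block. The number of genes called with DAPT in limma was 0, against 6 with a trend and robust prior, 3 after repeated quantile normalization, 6 among genes above the median cluster and 6 with the mean of all clusters of a gene. At an unadjusted p under 0.05 there were 1592 genes, 593 without the block and 705 in the plain one-way comparison. The number of genes called between experiments was 1047, against 1633 among genes above the median cluster, 103 with every cluster on its own, and from 1 to 906 when 1 experiment was left out, the fewest without experiment 1. Testing every cluster raised the adjusted p of *Aqp1* to 0.0568 and of *Aqp6* to 0.0545. Leaving out 1 experiment gave 0.0154 to 0.184 for *Aqp1* and 0.0129 to 0.168 for *Aqp6*, the highest without experiment 1. The cause was not tested. *Aqp11* passed with a trend and robust prior, after repeated quantile normalization or median centring, and among genes above the median cluster, with adjusted p between 0.0374 and 0.0475 in limma. With the 99th percentile of the olfactory receptor clusters as reference 1 member in place of 6 stood above it on all arrays.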
